A study of Mus musculus with 8 samples.

Results

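The genes described here are 57 genes of the Wnt pathway in the mouse, among 21951 protein-coding genes of the annotation. They were named from a list and grouped by role into 19 Wnt ligands, 4 R-spondins, 17 receptors and co-receptors, 12 inhibitors and 5 nuclear effectors. Chromatin accessibility at E10.5 was profiled by ATAC-seq, a method that uses a transposase to tag open DNA. There were 4 samples of wild-type (WT) hearts and 4 of *Chd4-CMko* hearts, each sample made from several pooled hearts (3 in the series text, 4 in the sample protocol). *Chd4* encodes the ATPase of the NuRD chromatin remodelling complex. *Chd4-CMko* denotes its conditional deletion in cardiomyocytes. For stained sections of embryos of this stage, the methods describe a cross of *Chd4* fl/fl females with *Tnnt2* Cre/+, *Chd4* fl/+ males. Their part on ATAC-seq names no cross. The *Tnnt2* promoter, which drives this Cre, is active in cardiomyocytes. Whole hearts were dissociated, so cells in which this Cre is not meant to act were measured with the cardiomyocytes. In such a mixture, a change in the number of cells of a type and a change in accessibility per cell cannot be told apart.

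The deposited values were 2 lists of differential peaks in mm10 coordinates, 12991 with higher signal in *Chd4-CMko* hearts (gained) and 2745 with higher signal in WT hearts (lost). A peak was assigned to a gene when its nearest protein-coding transcription start site (TSS) was that of the gene, or when it lay within 10 kb of the gene body. Each peak carries a score given by the authors. The score is given here with its percentile within its own list, and scores were not compared between the lists. The lists hold no value per sample. No result below therefore has a replicate error or a test between genotypes, and counts of members stand beside the same counts over all protein-coding genes. The targeted gene *Chd4* was assigned 2 gained and 0 lost peaks.

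Wnt proteins are secreted, lipid-modified ligands that bind Frizzled receptors together with LRP5 or LRP6. In the canonical branch this stabilises β-catenin, the product of *Ctnnb1*, which enters the nucleus and acts with TCF and LEF proteins on target genes. R-spondins acting through LGR receptors strengthen the signal, secreted SFRP and DKK proteins and intracellular AXIN and NKD proteins restrain it, and the ROR co-receptors serve a branch that does not need β-catenin. In the embryonic heart, Wnt signalling acts at several steps, from the specification of cardiac progenitors to the growth of the myocardium and the valves.

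Gained peaks were found at most members. A gained peak was assigned to 41 of the 57 genes (71.9%), beside 37.4% of all protein-coding genes, and a lost peak to 14 (24.6%), beside 10.8%. Both kinds were assigned to 8 members, only gained peaks to 33, only lost peaks to 6 and neither kind to 10. The 10 were *Wnt9a*, *Wnt9b*, *Wnt10b*, *Fzd3*, *Fzd5*, *Fzd6*, *Lgr5*, *Sfrp4*, *Sfrp5* and *Dkk4*. Members held 102 distinct gained peaks and 20 lost peaks, so that 83.6% of their peaks were gained (Wilson 95% interval 76 to 89.1%, counting error only). This share was close to that of all 15736 listed peaks, 82.6%. The balance between gained and lost was thus near that of the whole data set, while the share of genes with a peak was higher among members for both kinds.

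**Figure D1:**
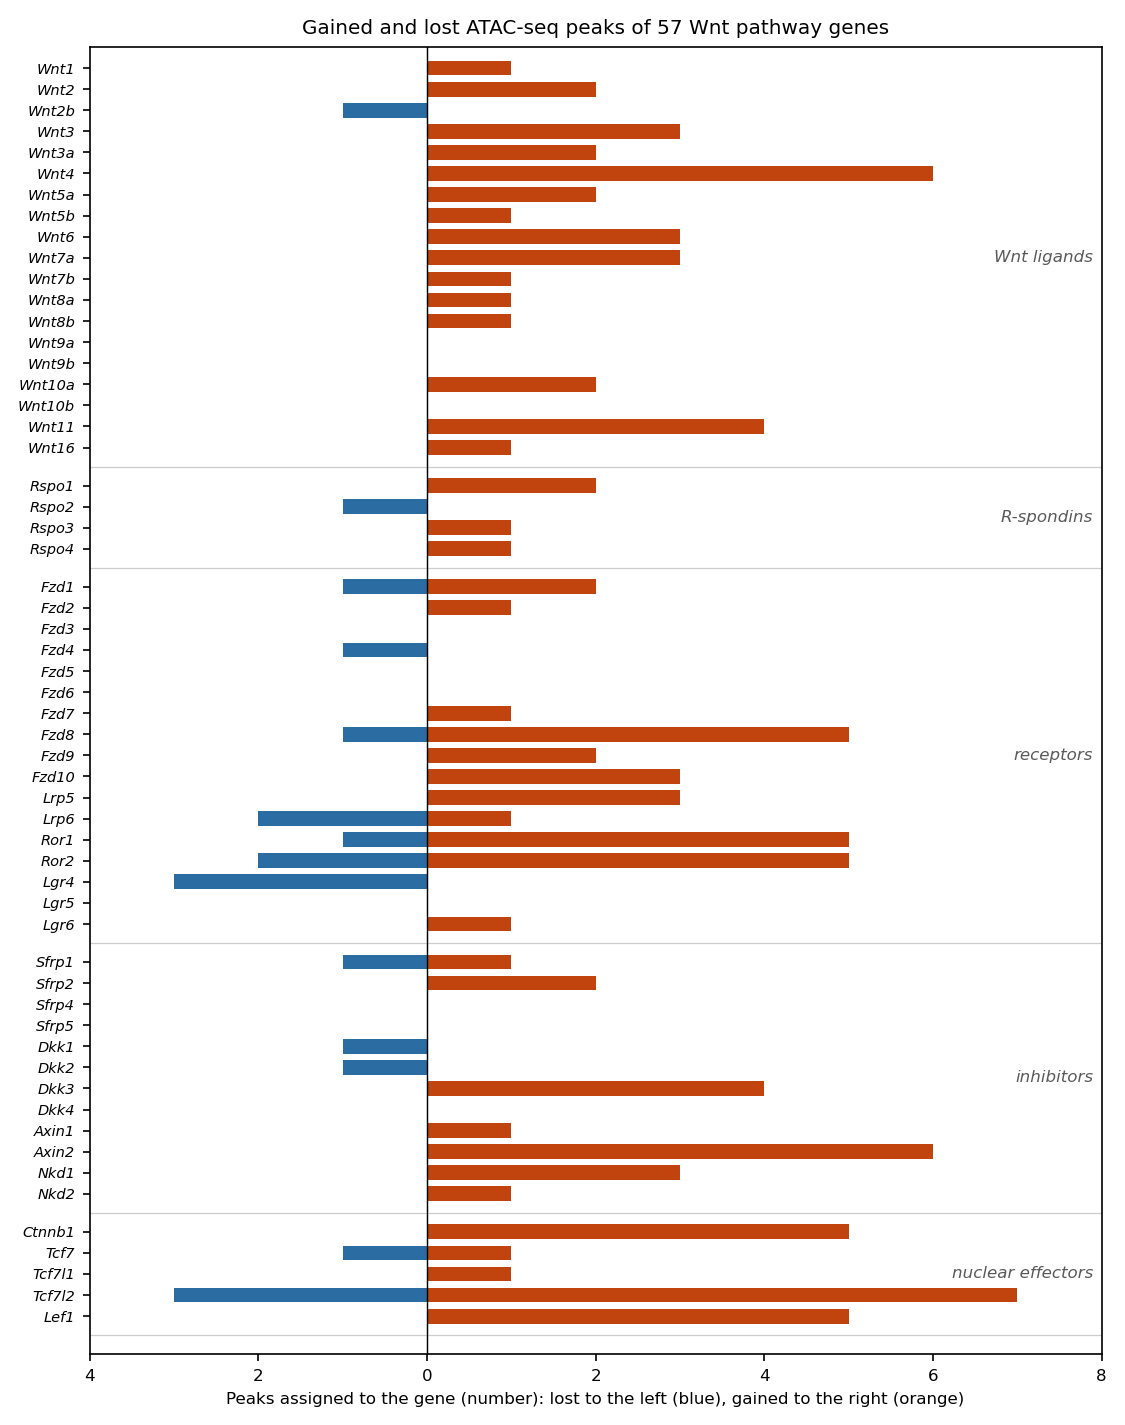
Number of peaks assigned to each of the 57 members (horizontal axis), with lost peaks to the left and gained peaks to the right, grouped by role. *Tcf7l2* has 7 gained peaks and *Tcf7l2* and *Lgr4* have 3 lost peaks each, the highest counts under this assignment, and 10 members have none.

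Members occupy more of the genome than most genes. The stretch in which a peak would be assigned to the gene had a median of 109 kb for members and 56.4 kb for all protein-coding genes. Among genes with a stretch over 123 kb, 21 of 25 members (84%) had a gained peak and 10 (40%) a lost peak, beside 58.4% and 28.4% of all genes of that size. Between 56.4 and 123 kb, the members' shares were 70% and 20% (20 genes), beside 39.6% and 9.15%. Per megabase, members held 11.4 gained and 2.21 lost peaks, and all genes 5.2 and 1.01. The 12 members with shorter stretches had no lost peak, beside 1.68% of all genes up to 33.3 kb and 3.92% of those from 33.3 to 56.4 kb, and a gained peak was assigned to 6 of them, beside 21.1% and 30.5% of all genes of those sizes. The part of gene extent in the members' counts was not tested.

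The shares of genes with a peak varied between roles. Gained peaks were assigned to 78.9% of ligands, 75% of R-spondins, 64.7% of receptors, 58.3% of inhibitors and all 5 nuclear effectors. The share of all protein-coding genes was 37.4%. Lost peaks were assigned to 5.26% of ligands, 25% of R-spondins, 41.2% of receptors, 25% of inhibitors and 40% of nuclear effectors. For all protein-coding genes this share was 10.8%. A single ligand had a lost peak, and receptor genes held 11 of the members' 20. The numbers changed with the assignment, to 2 ligands with a window of 25 kb, 3 ligands with the 5′ end of each gene as its only start, and 4 in place of 7 receptors within 10 kb of the gene body. Of the peaks of ligands, 97% were gained (84.7 to 99.5%, 32 of 33), and of those of receptors 72.5% (57.2 to 83.9%, 29 of 40). Of all listed peaks, 82.6% were gained. These groups are small, their peaks are not independent of each other, and the difference between roles was not tested.

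**Figure D2:**
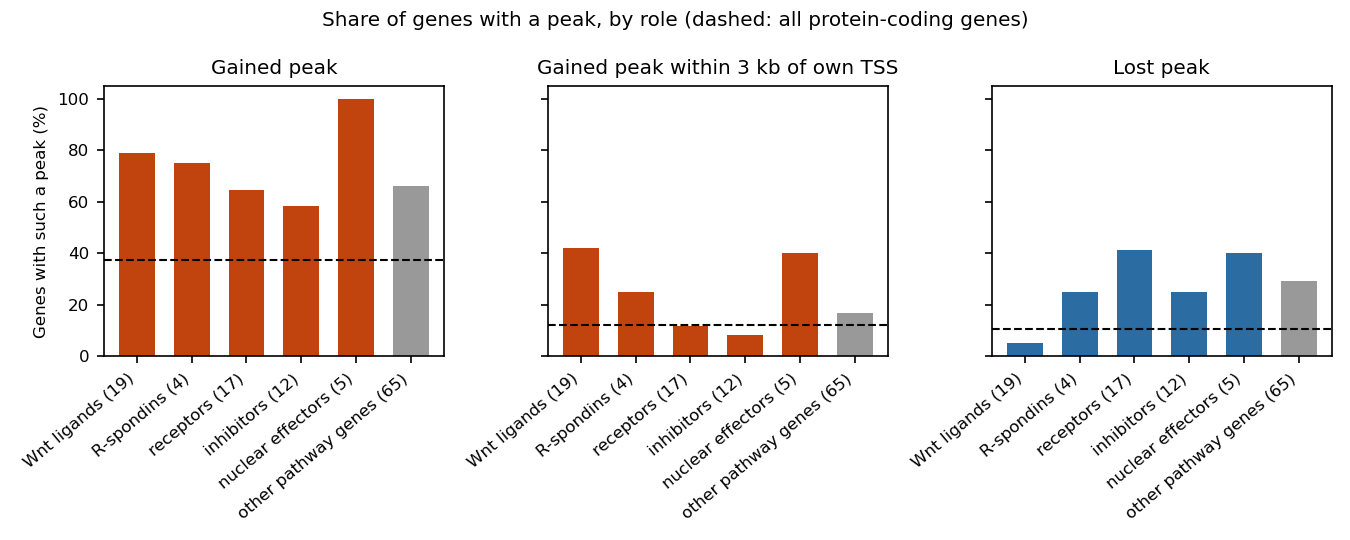
Share of genes in percent (vertical axis) with a gained peak, with a gained peak within 3 kb of an own TSS and with a lost peak, for each role and for 65 other genes of the pathway (number of genes in brackets). The dashed lines mark all protein-coding genes, at 37.4%, 12.3% and 10.8%, and all roles stand above the line for a gained peak.

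Members with a peak at their start had gained peaks there. A gained peak lay within 3 kb of an own TSS in 14 members (24.6%), beside 12.3% of all protein-coding genes. No member had a lost peak there, and with 1.23% of all protein-coding genes so placed, a count of 0 among 57 is no result about the members. Of the 14 genes, 8 were ligands (42.1% of ligands), and the others were *Rspo1*, *Fzd10*, *Lrp5*, *Axin2*, *Tcf7* and *Lef1*. The share was 25% for R-spondins and 40% for nuclear effectors, both small groups. For receptors (11.8%) and inhibitors (8.33%) it lay below that of all genes. Of the 17 promoter peaks of these 14 genes, 13 had their centre within 200 bp of the TSS. A GC content of 60% or more was found in 13, and the mean was 70.9%. Of all 2975 gained peaks within 3 kb of a protein-coding TSS, 1362 lay within 200 bp. In that set 1855 had a GC content of 60% or more, and the mean was 64.4%. Members' promoters are rich in G and C. Within 500 bp of the TSS the median GC content was 63.5% for members and 54.7% for all genes, and 41 members lay at or above 58.7%, as did 33.6% of all genes. Of these 41, 12 had a gained promoter peak, beside 18.4% of all genes with promoters that rich.

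The promoter peak with the highest score of each role is printed below to show what kind of DNA opened at these starts. Sequences are the + strand of mm10, and bases that the annotation places in an untranslated region were left out. Capitals mark matches to consensus strings on either strand, for KLF proteins (GGGNGNGGC), which bind GC-rich promoters, and for the factor NFY. The NFY strings were CCAATCA or its variant form CCAATGA, along with the further variant CCAATGG and the other variant CCAATCG. The peaks are at *Wnt3* (chr11:103773992-103774142, score 176), *Rspo1* (printed chr4:124986347-124986429, score 139), *Fzd10* (printed chr5:128600710-128600843, score 212.5), *Axin2* (printed chr11:108921254-108921335, score 265) and *Lef1* (chr3:131110196-131110346, score 201.5).
Wnt3: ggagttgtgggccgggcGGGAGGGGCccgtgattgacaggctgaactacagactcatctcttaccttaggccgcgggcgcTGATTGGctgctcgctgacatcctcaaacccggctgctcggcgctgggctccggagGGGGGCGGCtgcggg
Rspo1: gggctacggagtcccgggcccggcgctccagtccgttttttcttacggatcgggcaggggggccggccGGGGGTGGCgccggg
Fzd10: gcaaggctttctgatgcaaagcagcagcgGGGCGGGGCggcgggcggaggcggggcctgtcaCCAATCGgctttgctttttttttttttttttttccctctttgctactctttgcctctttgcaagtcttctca
Axin2: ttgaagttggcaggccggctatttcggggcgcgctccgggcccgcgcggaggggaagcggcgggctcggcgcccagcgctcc
Lef1: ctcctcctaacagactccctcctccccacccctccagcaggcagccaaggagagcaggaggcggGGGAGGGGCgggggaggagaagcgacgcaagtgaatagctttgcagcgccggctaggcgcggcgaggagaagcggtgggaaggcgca

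All of these except the *Axin2* stretch held a KLF match, and those of *Wnt3* and *Fzd10* held an NFY match as well. The KLF string was present in 8 of 18 gained peaks of members within 3 kb of any protein-coding TSS (44.4%), and in 39.2% of all 2975 gained promoter peaks. The NFY string was in 5 of the 18 (27.8%, 12.5 to 50.9%), beside 13.9% of all. A match is a description of the letters in a peak and does not show that a protein was bound.

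Among the ligands, gained peaks lay at the start of *Wnt1*, *Wnt3*, *Wnt3a*, *Wnt5b*, *Wnt6*, *Wnt7a* and *Wnt16*. The centre of the peak was 150 bp upstream of the TSS of *Wnt1* (chr15:98789632-98789782, score 164, percentile 86.8), a ligand of neural and midbrain development. At *Wnt3* it was 83 bp upstream (score 176, percentile 88.5), and at *Wnt3a* 165 bp upstream (score 67, percentile 53.8). Both encode ligands of the canonical branch that act in gastrulation and in the formation of axial tissue. The peak of *Wnt6* lay 177 bp upstream (score 170.5), that of *Wnt5b* 75 bp upstream (score 129), that of *Wnt16* 70 bp upstream (score 130.5) and that of *Wnt7a* 57 bp downstream (score 89). Apart from those of *Wnt3a* and *Wnt7a*, these peaks stood above percentile 80 of the gained list. *Wnt7a* had also a higher peak in an intron 1751 bp from a TSS (score 130, percentile 80.4) and one 18353 bp beyond its end (score 46.5). *Wnt7b* had its only peak 1571 bp from a TSS within an intron, with a low score of 39 (percentile 22.7).

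Several Wnt genes sit side by side in the genome, and the neighbours differed. *Wnt1* and *Wnt10b* are separated by 11.7 kb on chromosome 15, *Wnt3a* and *Wnt9a* by 16.2 kb and *Wnt9b* and *Wnt3* by 24.3 kb, both on chromosome 11. In each of these pairs, the gene with a gained peak at its start (*Wnt1*, *Wnt3a*, *Wnt3*) had a neighbour with no peak in either list. *Wnt6* and *Wnt10a*, 6.19 kb apart on chromosome 1, shared a gained peak (chr1:74784148-74784298, score 92) in a coding exon of *Wnt6*, 1784 bp from a *Wnt6* TSS and 7293 bp upstream of *Wnt10a*. *Wnt6* also had an intronic peak (score 73), and *Wnt10a* one 2887 bp beyond its end (chr1:74807066-74807216, score 152.5). That difference between the pairs rests on the 10 kb window. With a window of 25 kb, 18 in place of 15 ligands had a gained peak, since the start peaks of *Wnt1*, *Wnt3a* and *Wnt3* then also counted for their neighbours.

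*Wnt4*, *Wnt11*, *Wnt2* and *Wnt5a* opened away from their starts only. *Wnt4*, known for its part in kidney and female reproductive tract development, had 6 gained peaks. All of them lay upstream, between 12177 and 89719 bp from the TSS, with scores from 38.5 to 71 (percentiles 21.8 to 56.7). None lay within 10 kb of the gene body, so all 6 rest on the nearest-TSS part of the assignment, and 2 were left when starts of all annotated genes competed. *Wnt11*, a ligand of the β-catenin-independent branch that acts in heart development, had 4 gained peaks, at 6026, 30058 and 60083 bp upstream and 40235 bp downstream of a TSS. Their scores lay close together, between 78 and 86.5, and the downstream one lies within the gene *Uvrag*. *Wnt2*, which is expressed in cardiac progenitors, had an intronic peak 27167 bp from its TSS (score 62.5) and a weak one 19975 bp beyond its end (score 26, percentile 3.16).

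*Wnt5a*, *Wnt8a* and *Wnt8b* had few peaks, none of them at a start. The 2 gained peaks of *Wnt5a*, the main β-catenin-independent ligand, were 187141 and 222172 bp downstream of a TSS and among the lowest scores of the list (29.5 and 23, percentiles 7.75 and 0.854). *Wnt8b* had 1 gained peak 35971 bp upstream (score 85.5) and *Wnt8a* 1 at 12596 bp upstream (score 26). At *Wnt3* and at *Wnt3a* the peak with the highest score was a distal one and not the promoter peak. The highest score of a ligand, 254 (percentile 95.4), was at a peak in an intron of *Wnt3* 36145 bp from its TSS (chr11:103810220-103810370), with a further intronic peak at 40876 bp (score 68). A peak 8860 bp beyond the end of *Wnt3a* had a score of 199. For these 3 distal peaks the nearest start was that of another gene, *Nsf* at *Wnt3* and *Arf1* at *Wnt3a*. The only lost peak of a ligand was at *Wnt2b* (chr3:104943504-104943654), 1618 bp beyond the end of the gene, and it stood high in the lost list (score 78, percentile 91.9).

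The R-spondins had few peaks, and one of them differed in kind. *Rspo1* had a gained peak over its TSS, 8 bp from its centre (score 139, percentile 82.4), and another 21016 bp upstream (score 83). *Rspo4* had a gained peak 1661 bp beyond its end (chr2:151876329-151876479, score 146). The gained peak of *Rspo3*, which acts in the coronary and placental vasculature, was 271155 bp upstream, consisted wholly of repeat sequence and had one of the lowest scores (22.5, percentile 0.6). *Rspo2* had a lost peak and no gained one, in an intron 123479 bp from a TSS (chr15:43047264-43047414, score 30, percentile 32.8). R-spondins held 4.57 gained peaks per megabase, below the 5.2 of all protein-coding genes.

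Among the Frizzled receptors, which bind Wnt ligands, *Fzd10* alone opened at its start. Its peak lay 59 bp upstream of the TSS (chr5:128600710-128600860, score 212.5, percentile 92.6), with further gained peaks 63416 bp upstream (score 122) and 17008 bp downstream (score 50). *Fzd1*, *Fzd2*, *Fzd7*, *Fzd8* and *Fzd9* had gained peaks only away from their starts. Those of *Fzd2* (29239 bp, score 99) and *Fzd7* (6565 bp, score 57.5) were single. *Fzd9* had peaks 9571 and 23472 bp from its TSS with near-equal scores (65.5 and 65), and the nearer lies within *Baz1b*, 730 bp from the start of that gene. *Fzd1* had 2 weak gained peaks (scores 27.5 and 33.5) and a lost peak 261090 bp downstream (score 37.7). *Fzd8* had 5 gained peaks with scores from 29 to 77.5 and a lost one (score 48), all of them between 18918 and 518113 bp from its TSS. *Fzd4*, the receptor that with norrin guides vessel growth, had a lost peak alone, 33449 bp downstream (chr7:89437729-89437879, score 45.8, percentile 69). As a group the Frizzled genes held 8.29 gained and 1.78 lost peaks per megabase.

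The co-receptors LRP5 and LRP6, which are needed for the canonical branch, differed. *Lrp5* had 3 gained peaks and none lost, of which the strongest was 39 bp upstream of a TSS (chr19:3686528-3686678, score 200, percentile 91.5). The others were an intronic one (score 72.5) and one that overlaps the 3′ UTR of an annotated transcript (score 95.5). *Lrp6* had 1 gained peak, an intronic one with a low score (chr6:134527848-134527998, score 31.5, percentile 10.8), and 2 lost peaks. One lost peak was intronic (chr6:134526356-134526506, score 44.1), only 1.49 kb from the gained one. The other lay 6116 bp beyond the end of the gene and had the higher place in its list (score 85.9, percentile 94). The direction of change was therefore not the same along *Lrp6*.

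*Ror1* and *Ror2*, tyrosine kinase receptors of WNT5A, carried 5 gained peaks each, the most of any receptor together with *Fzd8*, and 3 lost peaks in all. *Ror1* opened 9729 bp upstream (score 72.5) and at 4 intronic sites from 120996 to 287077 bp downstream, with scores from 32.5 to 116.5. It had a lost peak in an intron 46021 bp downstream (score 52, percentile 77.4). The gained peaks of *Ror2* had scores from 46 to 101, the highest at an intronic site 3474 bp from a TSS (chr13:53279057-53279207). A lost intronic peak 9.21 kb from it (chr13:53269852-53270002) had a score of 103.8, at percentile 96.7 of the lost list. A further lost peak lay 57035 bp from a TSS (score 36.6). At the far 3′ side the nearest start was another gene's for 3 gained peaks of *Ror1* and 2 of *Ror2*. In both genes, gained and lost peaks lay within the same gene body.

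*Lgr4*, which encodes a receptor of R-spondins, had 3 lost peaks and no gained one, all of them intronic. The strongest (chr2:109989240-109989390) had a score of 105.1, the highest among the lost peaks of members (percentile 96.8), and the others had scores of 43.6 and 20.5. No other member had more than 1 lost peak without a gained one. *Lgr6* had instead 1 gained peak in a coding exon, 21640 bp from a TSS (score 90), and *Lgr5*, a marker of adult stem cells, had no peak. Counts of 3 and 0 in pooled lists do not show how the single samples varied.

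**Figure D3:**
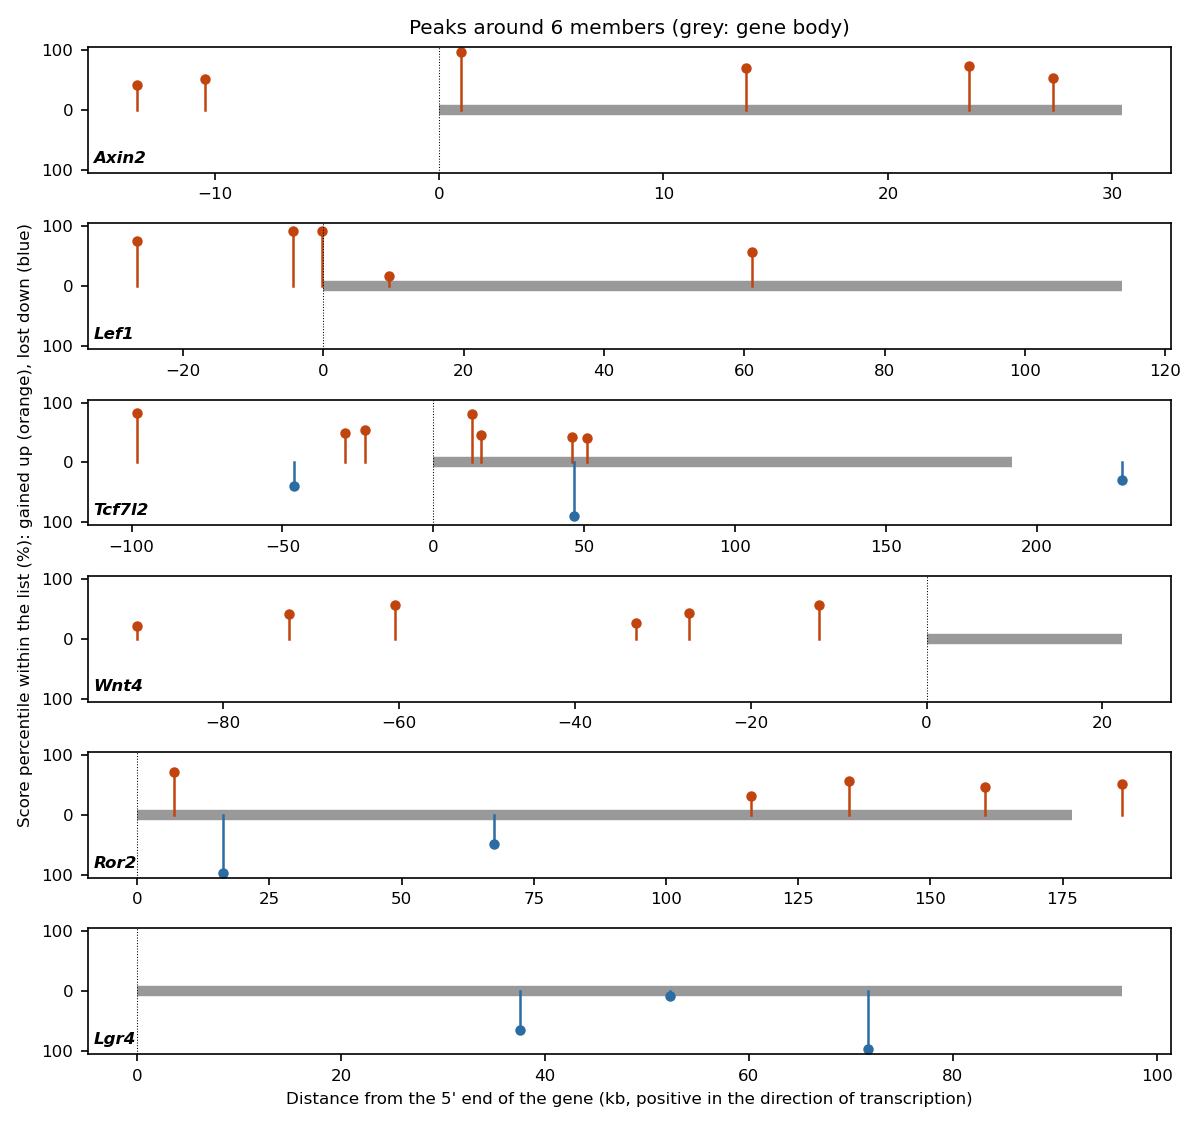
Peaks around 6 members by distance from the 5′ end of the gene in kb (horizontal axis), with the percentile of the score within its list as the height, gained upward and lost downward. *Axin2*, *Lef1* and *Wnt4* show gained peaks only, *Lgr4* lost peaks only, and *Tcf7l2* and *Ror2* both kinds. The text gives distances from the nearest of several annotated starts, so they can differ from this axis.

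Inhibitors act inside the cell or as secreted proteins. All 4 genes of intracellular inhibitors (*Axin1*, *Axin2*, *Nkd1*, *Nkd2*) had gained peaks, 11 in all, and none had a lost peak, a count that is no result at the 10.8% of all genes. Of the 8 genes of secreted inhibitors (*Sfrp1*, *Sfrp2*, *Sfrp4*, *Sfrp5* and *Dkk1* to *Dkk4*), 3 had gained peaks (37.5%, beside 37.4% of all genes), 7 in all, and 3 had a lost peak. This came to 20.8 gained peaks per megabase in the intracellular and 4.86 in the secreted group, beside 5.2 for all genes. Within 10 kb of the gene bodies the densities lay closer, at 22.2 and 10.9, and both were above the 7.26 of all genes, so the place of the secreted group against all genes depends on the window. *Axin2* alone had 6 of the 11 peaks of the intracellular group. Within 10 kb, the AXIN genes held 39.2 gained peaks per megabase and the NKD genes 7.01, just below all genes. Over their whole stretches the values were 24.6 and 16.4. The difference between the intracellular and the secreted group was not tested.

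*Axin2*, a scaffold of the β-catenin destruction complex and itself a widely used target gene of canonical Wnt signalling, had 6 gained peaks and no lost one. The peak at one of its starts, 7 bp from the TSS (chr11:108921254-108921404), had a score of 265, the highest among the gained peaks of members (percentile 96). Within the gene were peaks in introns (scores 95 and 66.5) and one over a coding exon, 334 bp from an internal TSS (score 103.5). The others lay 10427 and 13444 bp upstream (scores 63.5 and 54.5). All 6 were thus found within a stretch from about the gene's end to 13444 bp before its start. *Axin1*, the constitutive paralogue, had 1 gained peak, 7385 bp upstream (score 48.5).

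*Nkd1*, a feedback inhibitor that binds Dishevelled, had 3 gained peaks, of which 2 were strong. Those had scores of 215 (chr8:88455699-88455849, 65580 bp upstream, percentile 92.9) and 194.5 (intronic, chr8:88564670-88564820), and the remaining one 66.5. *Nkd2* had a weak one 32397 bp upstream (score 37). *Dkk3*, a divergent member of the Dickkopf family, had 4 gained peaks, of which 3 were intronic within 24537 to 31661 bp from its TSS, with a top score of 143.5. *Sfrp2*, which sequesters Wnt ligands, had 2 gained peaks (scores 33.5 and 89.5).

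Peaks of WT hearts were found at 3 secreted inhibitors. *Dkk1*, which blocks LRP5 and LRP6, had a lost peak alone, 129582 bp downstream (chr19:30420008-30420158, score 48.9, percentile 73.3). *Dkk2* likewise had a lost peak alone, 27297 bp beyond its end (score 39.7). *Sfrp1* had a lost intronic peak (chr8:23425377-23425527, score 43.4) and a weak gained one 40.9 kb from it (score 35.5). Only the *Sfrp1* peak lay within 10 kb of the gene, so the assignment of those at *Dkk1* and *Dkk2* rests on distance alone.

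Nuclear effectors had a median of 5 gained peaks per gene, beside 0 for all protein-coding genes. Their stretches were also long (median 219 kb), and per megabase they held 14.1 gained peaks, beside 19.6 in ligands. Within 10 kb of the gene bodies the densities were 19 and 19.6. *Tcf7l2*, which encodes TCF4, had 7 gained and 3 lost peaks over 98116 bp upstream to 71486 bp downstream of its starts. The highest gained scores were 138 (98116 bp upstream, chr19:55643629-55643779) and 131.5 (intronic, chr19:55754447-55754597), and the other 5 lay between 53.5 and 67.5. The strongest lost peak was intronic (chr19:55788373-55788523, score 73.2, percentile 90.1), and a gained peak (chr19:55787569-55787719, score 55.5) had its centre 804 bp away. That was the shortest distance between a gained and a lost peak at any member. The other lost peaks of *Tcf7l2* had low scores (33.1 and 28.4). When starts of all annotated genes competed, *Tcf7l2* had 4 gained and 1 lost peak while *Axin2* had 6 gained, so the rank of *Tcf7l2* depends on the assignment.

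*Lef1* had 5 gained peaks and no lost one. A peak 200 bp upstream of its TSS (score 201.5) and one 4353 bp upstream (chr3:131106043-131106193, score 200) both stood above percentile 91. The others were 26537 bp upstream (score 109) and in introns (scores 35 and 72). *Ctnnb1* also had 5 gained peaks, of which 4 were upstream between 9778 and 105579 bp (scores 62 to 107) and 1 lay 5425 bp beyond the gene in *Ulk4* (score 68). None of them was at its start. *Tcf7*, which encodes TCF1, had opened 44 bp from a TSS (chr11:52282540-52282690, score 131.5, percentile 80.7) and a lost intronic one 16.4 kb away (score 79.3, percentile 92.3). *Tcf7l1*, which acts mainly as a repressor, had 1 gained intronic peak with a score of 176 (percentile 88.5).

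**Figure D4:**
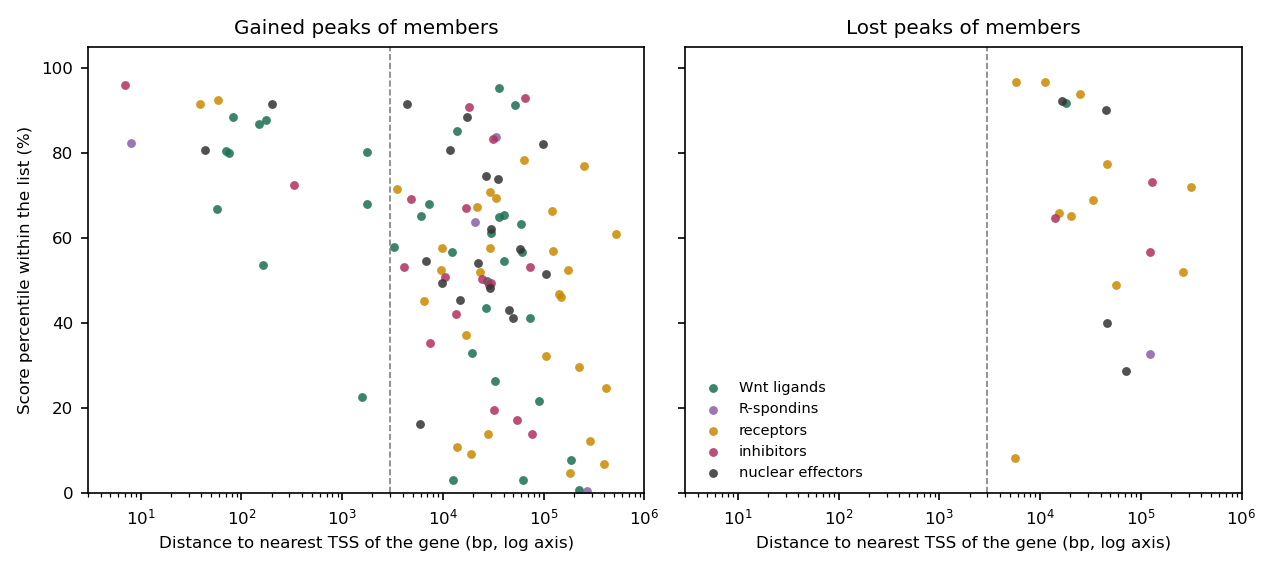
Each peak of a member by its distance to the nearest TSS of that gene in bp (horizontal log axis) and the percentile of its score within its list (vertical axis), coloured by role. The dashed line marks 3 kb. Gained promoter peaks of members had a median percentile of 80.7, beside 78.6 for all gained peaks within 3 kb of a protein-coding TSS. No lost peak lay left of the line, and distal peaks covered all heights.

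Members' peaks lay farther from start sites than the peaks of the lists as a whole. The median distance to a protein-coding TSS was 24004 bp for members' gained peaks and 15466 bp for all gained peaks, and 39526 and 25798 bp for lost peaks. These differences were not tested. Of the 102 gained peaks, 17.6% lay within 3 kb of a protein-coding TSS (11.5 to 26.2%), beside 22.9% of all gained peaks. By role this share was 31.2% for ligands, 25% for R-spondins (1 of 4 peaks), 10.3% for receptors, 11.1% for inhibitors and 2 of 19 peaks for nuclear effectors. A further 12.7% lay at 3 to 10 kb, 41.2% at 10 to 50 kb and 28.4% beyond 50 kb, beside 17.2%, 33.7% and 26.2% of all gained peaks. Of the 20 lost peaks, 0 lay within 3 kb, which allows a share of up to 16.1%, beside 10.1% of all lost peaks. Lost peaks were intronic in 11 cases, downstream in 7 and upstream in 2. The mean GC content was 57.9% ± 9.46 (SD over peaks) for gained and 51.3% ± 3.59 for lost peaks of members, beside 56.7% ± 8.55 and 50.5% ± 5.85 for the lists. The median score of members' gained peaks was 71, and that of all gained peaks 62.5. Beyond 3 kb from a TSS, the 84 gained peaks of members had a median score of 66 (percentile 52.9), above the 54.5 (percentile 42.3) of all 10016 distal gained peaks. That difference was not tested.

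As TCF and LEF proteins carry the canonical signal to DNA, members' peaks were searched for the string CTTTGAT or its variant form CTTTGAA on both strands. The string was in 4 of 102 gained peaks (3.92%, 1.54 to 9.65%) and in 4.16% of all gained peaks, and in 1 of 20 lost peaks and 4.95% of all lost peaks. Members' peaks thus held it about as often as any peak of the lists. All 5 peaks with the string lay more than 3 kb from a TSS. They are printed to show what these matches look like in the DNA, and a share this near that of the list is no result about the members. The capitals mark the string and, at *Axin2*, also an NFY match and the GATA string (AGATAA), all on either strand. The peaks are at *Lef1* (chr3:131106043-131106193), *Axin2* (chr11:108947632-108947782), *Wnt2* (chr6:18003343-18003493) and *Fzd1* (chr5:4786270-4786420) in the gained list and at *Dkk2* (chr3:132207601-132207751) in the lost list.
Lef1: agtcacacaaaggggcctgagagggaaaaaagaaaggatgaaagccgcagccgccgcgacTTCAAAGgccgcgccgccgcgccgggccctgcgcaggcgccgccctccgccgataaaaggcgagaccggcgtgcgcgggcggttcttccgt
Axin2: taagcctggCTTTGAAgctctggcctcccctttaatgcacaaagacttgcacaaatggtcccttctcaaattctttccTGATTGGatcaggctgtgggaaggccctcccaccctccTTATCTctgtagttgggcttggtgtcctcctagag
Wnt2: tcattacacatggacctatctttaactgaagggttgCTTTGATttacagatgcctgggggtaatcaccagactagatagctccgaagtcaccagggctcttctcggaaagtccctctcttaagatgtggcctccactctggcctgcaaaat
Fzd1: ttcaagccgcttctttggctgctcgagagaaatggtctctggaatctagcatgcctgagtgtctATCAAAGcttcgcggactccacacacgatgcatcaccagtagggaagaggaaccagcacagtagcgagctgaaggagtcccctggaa
Dkk2: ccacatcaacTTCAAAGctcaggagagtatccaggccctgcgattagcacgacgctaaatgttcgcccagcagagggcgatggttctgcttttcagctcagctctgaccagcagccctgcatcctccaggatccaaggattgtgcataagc

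The *Lef1* peak, with a score of 200, was GC-rich (68.2%) and its string stands within a run of CG dinucleotides, whereas the peaks of *Wnt2* (47.7%) and *Axin2* (51%) were of mixed composition. Their scores were 62.5 and 66.5, and that of *Fzd1* was 33.5.

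Strings of factors with a known part in the heart gave shares like those of the lists in most cases. The GATA string was in 10.8% of members' gained peaks and 11.1% of all, and the TEAD string (GGAATG) in 13.7% and 11.4%. For KLF the shares were 25.5% and 24.4%, and for NFY 15.7% and 19.2%. The cardiac MEF2 string was in none of the 102 gained peaks (0 to 3.63%) and in 3.26% of all gained peaks. The NKX string (TNAAGTG) was in 2.94% (1.01 to 8.29%) and 6.87%, the T-box string (AGGTGTGA) in 0.98% and 1.28%, and the CTCF string in 1.96% and 1%. For MEF2, NKX, T-box, GATA and NFY the share of members was thus the lower one. With peaks extended by 100 bp on each side, the NKX string was in 11.8% of members' gained peaks and 16% of all. Among members' lost peaks the TEAD string was in 6 of 20 (30%, 14.5 to 51.9%), beside 18.2% of all lost peaks. NKX, NFY and KLF strings were in none of the 20, beside 9.91%, 3.21% and 3.53%. For each of the 9 strings, the interval of members included the share of the list.

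**Figure D5:**
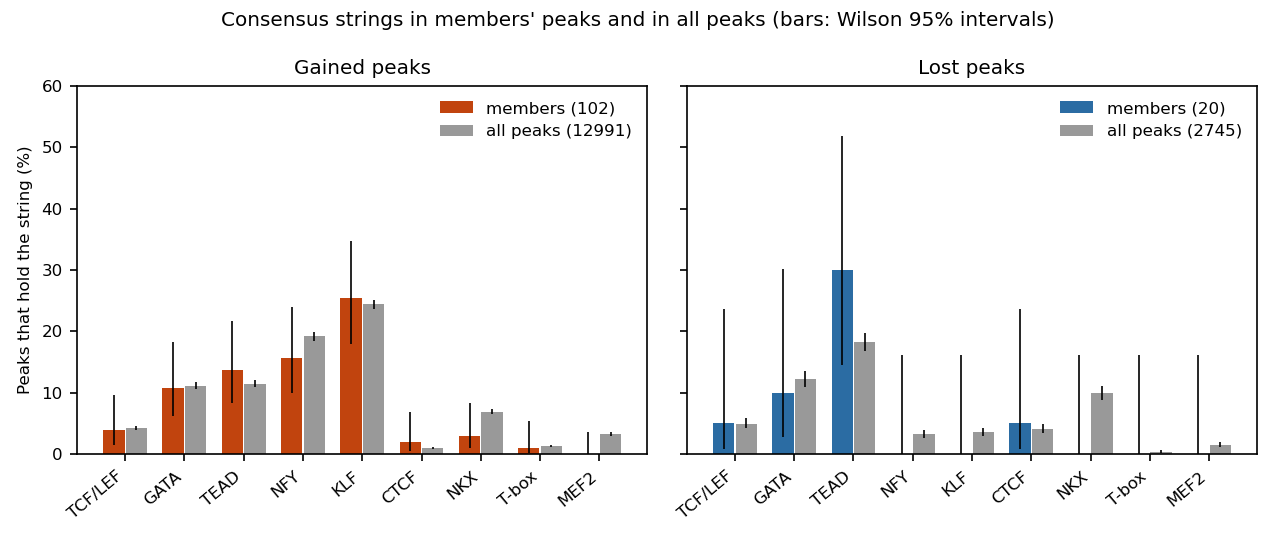
Share of peaks in percent (vertical axis) that hold each of 9 consensus strings, in gained peaks (left) and lost peaks (right), for members (coloured) and for all peaks of the list (grey), with Wilson 95% intervals. The KLF string was the most frequent in gained peaks (25.5% and 24.4%) and the TEAD string in lost peaks (30% and 18.2%).

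Other genes of the pathway were examined as a list of 65. A gained peak was assigned to 43 of them (66.2%) and a lost peak to 19 (29.2%), which is also above the 37.4% and 10.8% of all genes. A gained promoter peak was found at 11 (16.9%), beside 12.3% of all protein-coding genes. A lost one was found at 3 (*Tnks2*, *Tle1* and *Tle3*, 4.62%), beside 1.23%. All 8 genes known as targets of the pathway had gained peaks, 30 in all. There were 7 at *Myc*, 6 at *Sp5*, 5 at *Ccnd1* and 3 at *Bmp4*, and 1 of the 8 had a lost peak (*Isl1*). Their stretches were long (median 204 kb, and 1444 kb at *Myc*), and 58.4% of all genes over 123 kb had a gained peak. These targets held 8.38 gained peaks per megabase, beside 11.4 in members and 5.2 in all genes. *Tle3*, a corepressor of TCF proteins, had 12 gained peaks. Of the 9 genes of planar cell polarity, 7 had gained peaks, with 9 at *Daam1* and 4 at *Celsr1*, and 4 had lost ones. *Porcn* and *Wls*, needed for secretion of Wnt proteins, had no peak, and *Notum*, which removes their lipid, had 1 at its promoter. The list covers large genes (median stretch 141 kb), and its density was 8.74 gained peaks per megabase, below the 11.4 of members.

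As hearts were measured whole, genes that mark its cell types were counted in the same way. Gained peaks were assigned to 4 of 6 cardiomyocyte, 4 of 5 endothelial, 2 of 4 epicardial and 0 of 4 erythroid markers. The share of all protein-coding genes was 37.4%. Lost peaks were assigned to 0, 1, 3 and 3 of them, beside 10.8% of all protein-coding genes. In groups this small, the counts of 0 are no result about a cell type. The erythroid genes *Hbb-y*, *Hba-x* and *Alas2* held 8 lost peaks between them. The part of a different make-up of the pooled hearts in the peaks of Wnt genes was not tested.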

How the data were processed

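ATAC-seq was performed on E10.5 WT and *Chd4-CMko* hearts (4 samples each). Per the labels and methods, reads were mapped by the authors to mm10 (BWA-MEM). Peak calling used HOMER 4.10.3 and annotation ChIP-Seeker 1.20.0, and differential peaks passed a fold-change limit. How samples were combined, duplicates and the Tn5 offset are not given in the sources used here, and each can change which peaks pass. The value in both deposited lists is a score by the authors whose scale is not stated. The methods give a sequencing depth per sample, but the lists hold no count from which it could be checked.

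Peaks were assigned by their centre to protein-coding genes of GENCODE release M21 on GRCm38, the same build as mm10 (Python 3.11.15, numpy 2.4.6, scipy 1.17.1, pysam 0.24.0). Promoter peaks lay within 3 kb of a TSS. Strings were searched on both strands without mismatch. Shares have Wilson 95% intervals for counting error only. All 57 members are accounted for. Described singly by rule are those with 2 or more peaks, a lost peak or a promoter peak, and the 3 highest scores of each list among members. Members with 1 distal gained peak are named as well, outside that rule and after their values were seen. The members, lists and strings were chosen with earlier results of these data known. One marker gene of the list is not reported here. The assignment and the string search were tested on simulated data. The alternatives were other windows, start sites, score limits and peak widths.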

Additional observations from a re-analysis of the deposited data

How the results depend on the processing

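No paired analysis was possible because the lists carry no value per sample, and for the same reason no replicate could be left out. Of 213 values recomputed under 13 alternatives, 184 stayed within 1.5 times (counts) or the interval (shares) of the reported value and 29 moved. Counting only peaks within 10 kb of the gene body gave 59 gained peaks and 13 lost peaks, with lost peaks at 9 members, 4 receptors and 1 inhibitor. With a window of 25 kb, 2 ligands had a lost peak, and with the 5′ end of each gene as its only start, 3. Keeping the peaks at or above each list's median score left 65 gained peaks, 4 inhibitors with a gained peak and 0 R-spondins with a lost peak. A common score limit of 36.8, which assumes that both lists share a scale, also left 0 R-spondins with a lost peak. With peaks extended by 100 bp on each side, the TCF/LEF string was in 11.8% of members' gained peaks, beside 10.6% of all gained peaks extended likewise. The GATA string went from 10.8% to 18.6% (20.3% of all) and the KLF string from 25.5% to 39.2% (33.7% of all). Among single genes, *Wnt4* had 0 gained peaks within 10 kb of its body, and 2 when starts of all annotated genes competed or at or above the median score. *Ctnnb1* had 9 with 5′ ends as starts, and 2 within 10 kb or when starts of all annotated genes competed. *Tcf7l2* had 4 gained peaks under each of those last 2 settings and 3 at or above the median score, where *Axin2* had 5. It had 1 lost peak under these 3 settings and above the common score limit. With extended peaks the NKX string, in 0 of the lost peaks of members as deposited, was in 20% of them, beside 20.8% of all lost peaks. The cause of these shifts was not tested beyond what the alternatives themselves leave out. The lists give no depth or count behind a peak, so a gene without a peak may hold accessible sites that did not pass the authors' limit.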
